A study of Mus musculus with 12 samples.

Results

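The genes described here are 10 genes of antioxidant defence: *Sod1*, *Sod2*, *Cat*, *Gpx1*, *Gpx4*, *Prdx1*, *Txn1*, *Txnrd1*, *Nfe2l2* and *Keap1*. They were chosen by name, with earlier results of these data known, and each symbol matched 1 of the 56748 genes listed. Translating Ribosome Affinity Purification (TRAP) RNA from rods and RNA from whole retina were sequenced in 12 libraries of 2-week-old littermate mice, 3 libraries in each of 4 groups, to examine gene expression in rods that lack the tyrosine phosphatase Shp2. The control mice carried RiboTag;Shp2fl/+;i75-Rod-Cre and are called Het here, although their titles read wt, and the knockout mice carried RiboTag;Shp2fl/fl;i75-Rod-Cre and are called KO. All mice were homozygous for RiboTag, in which Cre switches ribosomal protein Rpl22 to a form with a hemagglutinin tag, and all carried Cre under a rhodopsin promoter. The Het rods had therefore lost 1 allele of *Ptpn11*, the gene for Shp2, and no mice without Cre or without a floxed allele were compared. The rod libraries hold RNA bound to tagged ribosomes and the retina libraries hold total polyA RNA, so a difference between cell types and a difference between ribosome-bound and total RNA cannot be told apart in the comparison of rods with retina.

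Oxygen reduced in respiration or in light-driven reactions gives superoxide, which superoxide dismutases turn into hydrogen peroxide. *Sod1* encodes the enzyme of the cytosol and *Sod2* that of the mitochondrial matrix. Catalase (*Cat*), the glutathione peroxidases (*Gpx1*, *Gpx4*) and the peroxiredoxins (*Prdx1*) remove peroxides, and thioredoxin (*Txn1*) and its reductase (*Txnrd1*) return peroxiredoxins to the reduced state with electrons from NADPH. *Nfe2l2* encodes NRF2, a transcription factor that binds antioxidant response elements, and *Keap1* encodes the adaptor that hands NRF2 to a ubiquitin ligase. Photoreceptors use much oxygen and hold lipids rich in polyunsaturated fatty acids, whose peroxides are the substrates of GPX4.

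In the GENCODE annotation of GRCm38, an older build than the authors' GRCm39, the dismutase genes span chr16:90220754-90226329 (+ strand) for *Sod1* and chr17:13006846-13040063 (+ strand) for *Sod2*. Those of the peroxide-removing enzymes span chr2:103453849-103485160 (- strand) for *Cat*, chr9:108338903-108340343 (+ strand) for *Gpx1*, chr10:80047166-80056439 (+ strand) for *Gpx4* and chr4:116685544-116700822 (+ strand) for *Prdx1*. The thioredoxin genes span chr4:57943373-57956411 (- strand) for *Txn1* and chr10:82833951-82897712 (+ strand) for *Txnrd1*, and those of the regulator and its adaptor chr2:75675513-75704641 (- strand) for *Nfe2l2* and chr9:21229730-21239361 (- strand) for *Keap1*.

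*Gpx1*, *Gpx4* and *Txnrd1* encode selenoproteins, in which a TGA codon is read as selenocysteine, the residue at the active site. The codon is shown because it sets these 3 members apart from the other 7. In the principal transcripts of a GENCODE annotation of GRCm38 it was codon 47 of 201 in *Gpx1* and codon 73 of 197 in *Gpx4*. In *Txnrd1* it was codon 498 of 499, so that only codon 499, ggt, lies between it and the stop codon. The capitals mark TGA.
Gpx1: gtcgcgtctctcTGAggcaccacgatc
Gpx4: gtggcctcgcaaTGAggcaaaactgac
Txnrd1: cagtctggctgcTGAggttaa

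The core of the antioxidant response element, TGACNNNGC, was searched on both strands of the RefSeq promoters (GRCm38.p6, 250 bases before to 50 after the start), which held all 10 genes in 15 entries. It was found for 4 of the 10 genes, *Sod1*, *Prdx1*, *Txnrd1* and *Nfe2l2*, against 13.99% of all 27025 genes. By promoter entry it was found in 4 of the 15, against 12.4% of all 32851. The matches are shown because NRF2, itself encoded by a member, binds this element. They are matches of letters and no binding was measured. The capitals mark the fixed bases, each sequence is written along the strand of its gene, and the *Nfe2l2* match alone reads TGACNNNGC in that direction.
Sod1: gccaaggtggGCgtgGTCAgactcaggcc
Prdx1: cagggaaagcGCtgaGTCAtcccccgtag
Txnrd1: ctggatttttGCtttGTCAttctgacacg
Nfe2l2: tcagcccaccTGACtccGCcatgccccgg
These windows lie at chr16:90220696-90220724 (+ strand) for *Sod1*, chr4:116685456-116685484 (+ strand) for *Prdx1*, chr10:82859104-82859132 (+ strand) for *Txnrd1* and chr2:75704885-75704913 (- strand) for *Nfe2l2*.

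The deposited values are read counts scaled by the authors to nearly 1 total within each fraction, so the depth of each library is unknown. Totals were 14525527 to 14527992 in retina and 16263948 to 16265259 in rods. Rod markers made up 6.24% to 8.02% of the total in retina and 18.6% to 22% in rods, and all 16 were higher in Het rods than in Het retina. Müller glia markers made up 0.386% to 0.609% in retina and 0.013% to 0.0223% in rods. Lens markers made up 0.000792% to 1.59% in Het retina and 0.44% to 5% in KO retina, with the 5% in KO retina 3. *Ptpn11* was listed at 2511, 2439 and 2431 in Het rods against 1735, 2139 and 1971 in KO rods, which do not overlap, with a log2 fold change of -0.26 (SE 0.09, adjusted p = 0.0636). The labels do not say that replicates were separate mice, so the p-values measure only the spread between these libraries.

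Libraries also differed in how their values changed with the GC content of the transcript. The median log2 deviation of the 10% of genes richest in GC minus that of the poorest 10% was -0.81, -0.23 and -0.42 in Het rods, against 0.42, 0.76 and 0.28 in KO rods. The genotypes did not overlap in this measure, so it and the loss of Shp2 cannot be told apart in rods. In retina it ran from -0.84 (Het retina 3) to 0.86 (Het retina 2) in Het and from -0.63 (KO retina 2) to 0.90 (KO retina 3) in KO. *Gpx4* (60.2% GC), *Keap1* (58%) and *Gpx1* (57.2%) lie at percentiles 96.7, 91.3 and 88.5 of GC content among genes tested in rods. *Sod2* (42.2%) and *Prdx1* (42.3%) lie at percentiles 12.1 and 12.6, and the other 5 between 34.3 and 69.6. Values with this trend removed from each library are therefore given for the 10 genes in rods.

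**Figure D1:**
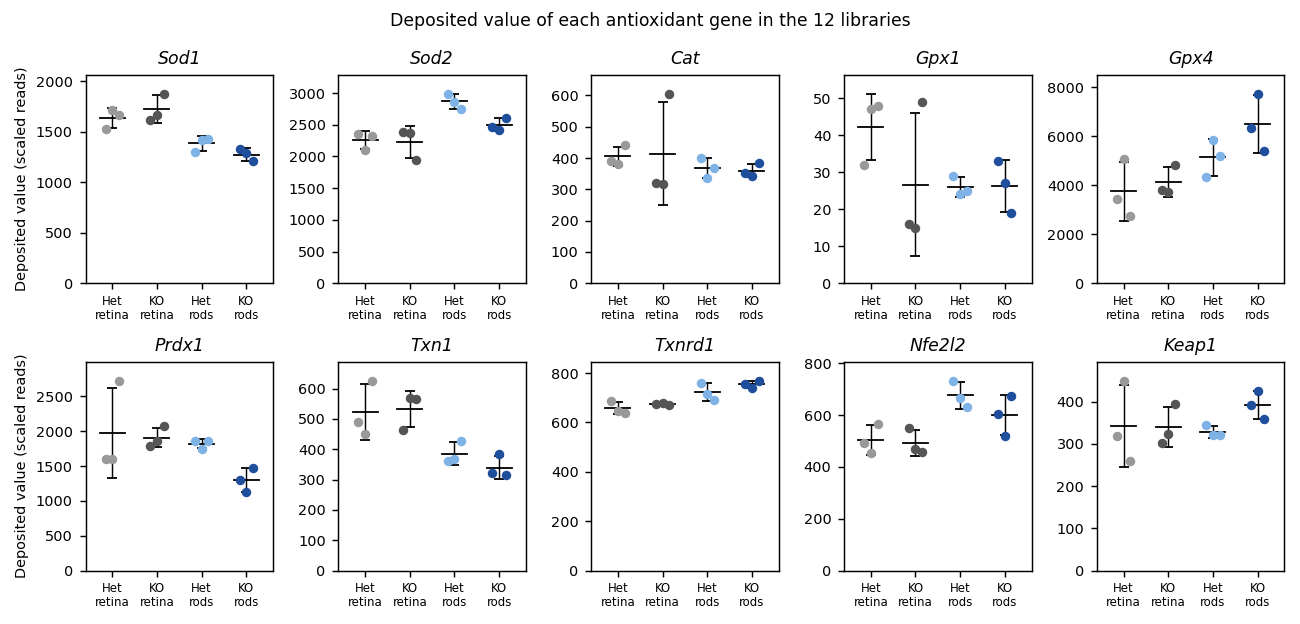
Deposited value (scaled reads, linear axis from 0) of each antioxidant gene in each of the 12 libraries, with the mean and SD of the 3 libraries of a group as lines. Het and KO rods do not overlap for *Prdx1*, *Sod2* and *Keap1*, and the 4 groups all lie between 15 and 49 for *Gpx1*.

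The 10 genes kept nearly the same order of level in every group. Levels between genes were compared as deposited values per kilobase of the principal transcript, with each library total set to 1000000. *Gpx4*, the peroxidase of lipid peroxides, was highest, with 329 ± 48.3 (SD, n = 3) per kilobase in Het rods and 269 ± 86.1 in Het retina. *Sod1* followed with 133 ± 7.21 in Het rods and *Prdx1* with 48.9 ± 1.84.

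*Sod2* came next at 30.1 ± 1.27 per kilobase in Het rods, then *Txn1* at 22.6 ± 2.16, *Nfe2l2* at 16.8 ± 1.29 and *Txnrd1* at 12.6 ± 0.62. In retina of both genotypes *Txn1* stood above *Sod2*, and in rods of both genotypes *Sod2* stood above *Txn1*, with no overlap in any group. This order depends on the transcript lengths used, 5861 bases for *Sod2* and 1051 for *Txn1*. As deposited, *Sod2* had the higher value of both in every library. The lowest levels in Het rods were 8.67 ± 0.74 for *Cat*, 5.59 ± 0.24 for *Keap1* and 1.49 ± 0.15 for *Gpx1*. In Het rods no neighbours in this order overlapped. *Nfe2l2* and *Txnrd1* overlapped in the other 3 groups, and *Txnrd1* and *Cat* in KO retina.

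*Gpx1*, the cytosolic glutathione peroxidase, had values of only 15 to 49, near the limit of 10 for testing. No other gene shares its exons in the annotation used here, and no transcript of at least 95% identity over 200 bases was found for it. How the authors counted reads at *Gpx1* is not given in the sources used here, so its values are reported as uncertain.

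*Gpx4* shares much of its sequence with the transcribed copy *Gpx4-ps2*. The transcripts, of 959 bases for *Gpx4* and 782 for *Gpx4-ps2*, were identical at 760 of 762 aligned positions (99.7%). Both differences fell among the 538 aligned coding positions. One of these is shown because reads that lie within the aligned part and cross neither difference cannot be assigned to either gene. The capital marks the difference, and the TGA of the selenocysteine codon follows 12 bases after it.
Gpx4: aCgtggcctcgcaatgaggcaaaactgac
Gpx4-ps2: aTgtggcctcgcaatgaggcaaaactgac
*Gpx4-ps2* was listed at 919 to 2266, which was 29% to 34.5% of the *Gpx4* value of the same library. Among 17192 genes it was also the gene whose pattern over the 12 libraries was most like that of *Gpx4*, with a root mean square difference of centred log2 values of 0.079. A further *Gpx4* copy, AC122253.3, was listed at 13 to 31, at most 0.598% of the *Gpx4* value. The copies of *Sod1*, *Prdx1* and *Txn1* summed to at most 5.12% of the value of their gene. *Keap1* shares 10.9% of its exonic bases with the antisense gene *Gm16754*, listed at 0 to 39, and reads of the 2 strands cannot be told apart unless strand was used in counting.

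Rods were first compared with the retina of the same genotype, which asks how these genes stand in ribosome-bound rod RNA against the tissue. All 10 genes passed the filter on low values. A gene was called at an adjusted p below 0.05 (limma, Benjamini-Hochberg over all genes tested) and a log2 fold change beyond 0.5. In Het mice 3 of the 10 were higher in rods, *Sod2*, *Gpx4* and *Nfe2l2*, against 21.4% of 16110 genes tested, and 0 were lower against 36.8%. Their median log2 fold change was 0.20 against -0.11 over all genes tested. In KO mice 5 of the 10 were higher, the same 3 with *Txnrd1* and *Keap1*, against 25.7% of 16121 genes, and 0 were lower against 36.5%, with a median of 0.51 against -0.02. After scaling, rods lay wholly above retina for 3 of the 10 in Het (28.5% of all genes) and 5 of the 10 in KO (32.7%), and wholly below for 0 in both (40% and 39.4%).

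*Sod2*, the mitochondrial superoxide dismutase, had deposited values of 2359, 2102 and 2323 in Het retina, against 2994, 2861 and 2752 in Het rods. All 3 rod libraries were above all 3 retina libraries. After scaling, rods were 1.51-fold higher (log2 fold change 0.59, SE 0.10, adjusted p = 0.000957). KO retina had 2392, 2368 and 1938 and KO rods 2470, 2412 and 2613, and the log2 fold change was 0.54 (SE 0.11, adjusted p = 0.00243). Removing the GC trend left 0.42 (adjusted p = 0.00304) in Het, under the fold limit, and 0.56 in KO. The genes most like *Sod2* over the 12 libraries were *Atp6v1b2* and *Idh3a*, at root mean square differences of 0.039 and 0.041.

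*Nfe2l2* had values of 491, 453 and 565 in Het retina, against 732, 666 and 630 in Het rods, with no overlap. Rods were 1.6-fold higher (log2 fold change 0.68, SE 0.14, adjusted p = 0.00245). In KO mice the retina libraries had 550, 467 and 458 and the rod libraries 604, 520 and 673, and the log2 fold change was 0.65 (SE 0.14, adjusted p = 0.00316). The deposited values of the KO groups overlap, whereas the values scaled for composition, on which the fold changes rest, do not. Both calls held once the GC trend was removed, at log2 fold changes of 0.60 and 0.68.

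*Gpx4* had values of 3444, 5072 and 2731 in Het retina, against 4352, 5856 and 5184 in Het rods, which overlap through Het retina 2. The log2 fold change was 0.74 (SE 0.23, adjusted p = 0.0194), and the adjusted p was 0.0759 without Het rod 2 and 0.0606 without Het rod 3. In KO mice the values were 3811, 3712 and 4817 in retina and 6345, 7736 and 5409 in rods, which do not overlap. Rods were 2.03-fold higher (log2 fold change 1.02, SE 0.17, adjusted p = 0.000692). Within each genotype, the retina library with the highest *Gpx4* value was the one with the steepest rise of values with GC content. Removing the GC trend gave log2 fold changes of 1.52 (SE 0.08) in Het and 1.16 (SE 0.13) in KO. With the values of *Gpx4-ps2* added to those of *Gpx4*, an alternative chosen after seeing the data, it was 0.75 and 1.01.

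*Txnrd1*, the cytosolic thioredoxin reductase, had values of 687, 647 and 640 in Het retina, against 762, 715 and 692 in Het rods. The Het rods were all above the Het retina, with a log2 fold change of 0.38 (SE 0.11, adjusted p = 0.0163), under the fold limit. KO retina had 675, 679 and 672 and KO rods 757, 741 and 768, and the log2 fold change was 0.53 (SE 0.11, adjusted p = 0.00218). That call was at the limit, since it was 0.49 with RLE scaling.

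*Keap1* had values of 319, 449 and 259 in Het retina, against 345, 321 and 320 in Het rods, with a log2 fold change of 0.22 (SE 0.21, adjusted p = 0.378). The Het retina values enclosed all the Het rod values. KO retina had 303, 322 and 394 and KO rods 391, 424 and 359, and the log2 fold change was 0.58 (SE 0.16, adjusted p = 0.0119). The KO groups overlap as deposited and do not after scaling. The adjusted p was 0.0502 without KO rod 2 and 0.0538 without KO retina 1. With the GC trend removed *Keap1* was called higher in both genotypes, at 0.74 (adjusted p = 0.000409) in Het and 0.57 (adjusted p = 0.00406) in KO.

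The remaining 5 genes, *Sod1*, *Cat*, *Gpx1*, *Prdx1* and *Txn1*, were not called in either genotype. Their log2 fold changes between rods and retina ran from -0.41 (*Gpx1*) to 0.18 (*Prdx1*) in Het and from -0.28 (*Txn1*) to 0.49 (*Gpx1*) in KO. *Sod1*, the cytosolic dismutase, had the value nearest 0 of the 10 in both genotypes. Its log2 fold change was 0.01 (95% interval -0.26 to 0.28) in Het and -0.06 (-0.34 to 0.22) in KO. *Prdx1* had 1604, 1604 and 2724 in Het retina, against 1861, 1744 and 1864 in Het rods, so that the retina values lay on both sides of the rod values. Without Het retina 3 it was called higher in Het rods (log2 fold change 0.54, adjusted p = 0.00491). Without KO retina 3, the library with 5% lens markers, *Cat* (0.54, adjusted p = 0.00345) and *Gpx1* (adjusted p = 0.0286) were called higher in KO rods, and *Sod2*, at 0.44, was under the fold limit. The part of lens RNA, or of other differences of this library, in these values was not tested.

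**Figure D2:**
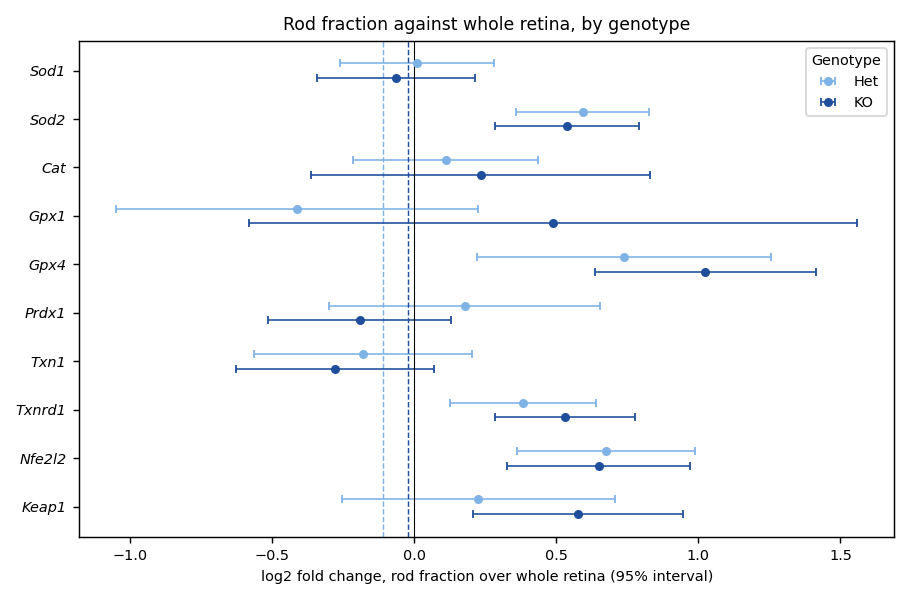
Log2 fold change of rods over whole retina for each gene in Het (light) and KO (dark) mice, with 95% intervals from limma; the dashed lines mark the median of all genes tested (-0.11 in Het, -0.02 in KO). *Sod2*, *Gpx4* and *Nfe2l2* lie above 0.5 in both genotypes, and *Txnrd1* and *Keap1* in KO.

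These directions depend on how rods and retina are put on 1 scale. With library size alone, the median of all genes tested moved from -0.11 to -0.51 in Het and from -0.02 to -0.55 in KO. Then 0 of the 10 genes were higher, and *Gpx1* and *Txn1* in Het and *Sod1*, *Prdx1* and *Txn1* in KO were called lower. Of all calls, the share that was higher fell from 36.8% to 13.6% in Het and from 41.3% to 12.7% in KO. Relative to the median of all genes, *Sod2* stood 0.70 higher in Het under the scaling used and 0.69 higher with library size alone, and *Nfe2l2* 0.78 higher under both. Genes of the mitochondrial genome took 5.3% to 9.58% of each retina library, against 0.0452% to 0.0854% in rods.

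KO rods were then compared with Het rods, which sets rods with both *Ptpn11* alleles floxed against rods with 1. By limma 0 of the 10 genes were called, against 11.2% of 13055 genes higher and 1.91% lower. Of all calls 85.4% were higher, against 67.3% with library size alone and 66.5% with scaling factors of all 12 libraries. At an adjusted p below 0.05 without the fold limit, 1 of the 10 was lower, *Prdx1*, against 8.59% of all genes, and 0 were higher against 15.7%. At an unadjusted p below 0.05 there were 3, *Prdx1*, *Keap1* and *Gpx4*, against 38.4% of all genes. The median log2 fold change of the 10 was 0.01 against -0.01 over all genes. After scaling, the KO and Het libraries did not overlap for 4 of the 10, with *Keap1* and *Txnrd1* above (23.7% of all genes) and *Prdx1* and *Sod2* below (20.4%). Of the rod markers 4 of 16 were higher in KO rods (median 0.20), and of the Müller glia markers 2 of 9.

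*Prdx1*, a cytosolic peroxiredoxin, had values of 1861, 1744 and 1864 in Het rods, against 1296, 1127 and 1472 in KO rods. All 3 KO libraries were below all 3 Het libraries. KO rods had 0.75 times the Het level (log2 fold change -0.41, SE 0.09, adjusted p = 0.00871), a fall that did not reach the fold limit. It was called lower at -0.50 (adjusted p = 0.00452) when scaling factors were estimated over all 12 libraries, an alternative chosen after seeing the data. Once the GC trend was removed it was -0.19 (SE 0.08, adjusted p = 0.14). The genes most like *Prdx1* over the 12 libraries were *Lamp2* and *Bnip3l*, at root mean square differences of 0.11 and 0.12.

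*Gpx4* had values of 4352, 5856 and 5184 in Het rods, against 6345, 7736 and 5409 in KO rods. The groups overlapped, since KO rod 3 was below Het rod 2. The log2 fold change was 0.42 (SE 0.17, adjusted p = 0.122), and without KO rod 3 it was 0.57 (adjusted p = 0.019) and called. With the GC trend removed the direction turned, to -0.36 (SE 0.06, adjusted p = 0.00553). With *Gpx4-ps2* added the value was 0.38 (adjusted p = 0.147).

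*Keap1* had values of 345, 321 and 320 in Het rods, against 391, 424 and 359 in KO rods, with no overlap. The log2 fold change was 0.33 (SE 0.12, adjusted p = 0.0606), and it too turned with the GC trend removed, to -0.29 (SE 0.11, adjusted p = 0.141). Its substrate adaptor role pairs it with NRF2, and *Nfe2l2* had 732, 666 and 630 in Het rods, against 604, 520 and 673 in KO rods, which overlap. The log2 fold change of *Nfe2l2* was -0.10 (95% interval -0.32 to 0.13, adjusted p = 0.522).

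*Txnrd1* had 762, 715 and 692 in Het rods against 757, 741 and 768 in KO rods, which overlap as deposited and do not after scaling, with a log2 fold change of 0.15 (SE 0.09, adjusted p = 0.24), and 0.14 with the GC trend removed. *Sod2* had 2994, 2861 and 2752 in Het rods against 2470, 2412 and 2613 in KO rods, all below, with -0.12 (SE 0.07, adjusted p = 0.262), which turned to 0.11 with the GC trend removed. *Sod1* had 1299, 1424 and 1434 in Het rods, against 1329, 1287 and 1208 in KO rods, which overlap, with a log2 fold change of -0.04 (SE 0.09, adjusted p = 0.785). With the GC trend removed *Sod1* was at -0.26 (SE 0.07, adjusted p = 0.0368), still within the fold limit. The 95% intervals of *Cat* (-0.19 to 0.29) and *Txn1* (-0.39 to 0.19) exclude a change of 0.5 on the log2 scale, whereas that of *Gpx1* (-0.54 to 0.68) does not. Removal of the GC trend took *Gpx1* from 0.07 to -0.49 (SE 0.28, adjusted p = 0.328) and *Nfe2l2* from -0.10 to 0.01 (SE 0.09, adjusted p = 0.943). *Cat* was then at 0.09 (SE 0.10, adjusted p = 0.643) and *Txn1* at -0.00 (SE 0.12, adjusted p = 0.989).

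**Figure D3:**
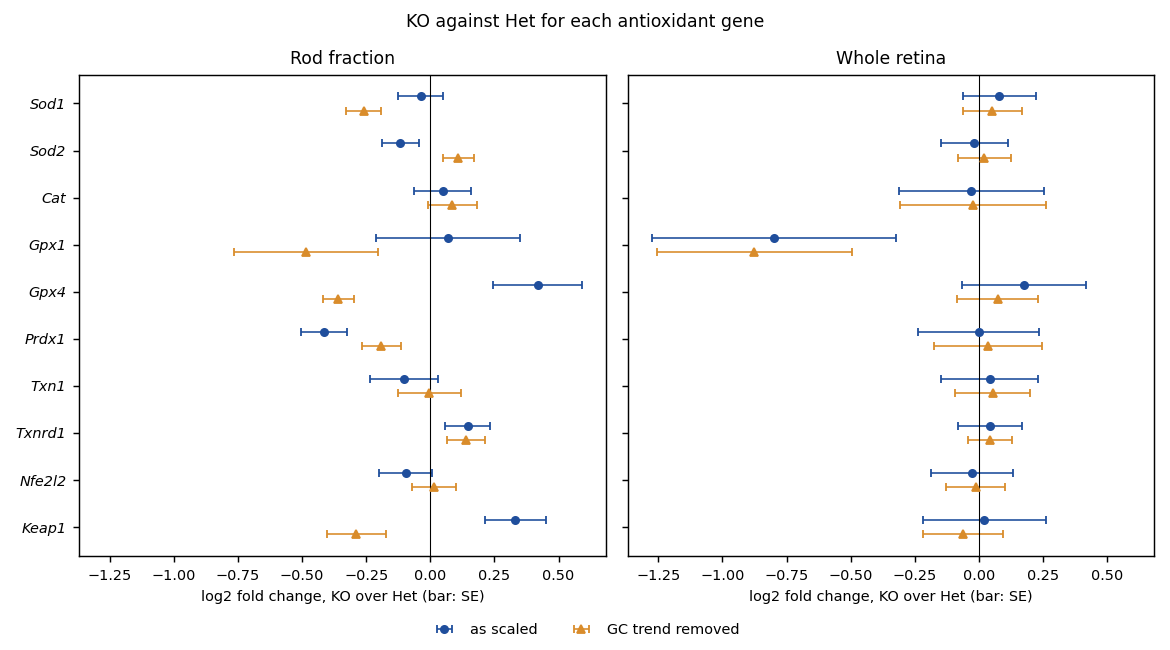
Log2 fold change of KO over Het for each gene in rods (left) and whole retina (right), as scaled (circles) and with the GC trend of each library removed (triangles), with SE bars. In rods *Gpx4*, *Keap1*, *Sod2*, *Gpx1* and *Nfe2l2* change sign between the 2 versions, whereas *Txnrd1* stays at 0.15 and 0.14.

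**Figure D4:**
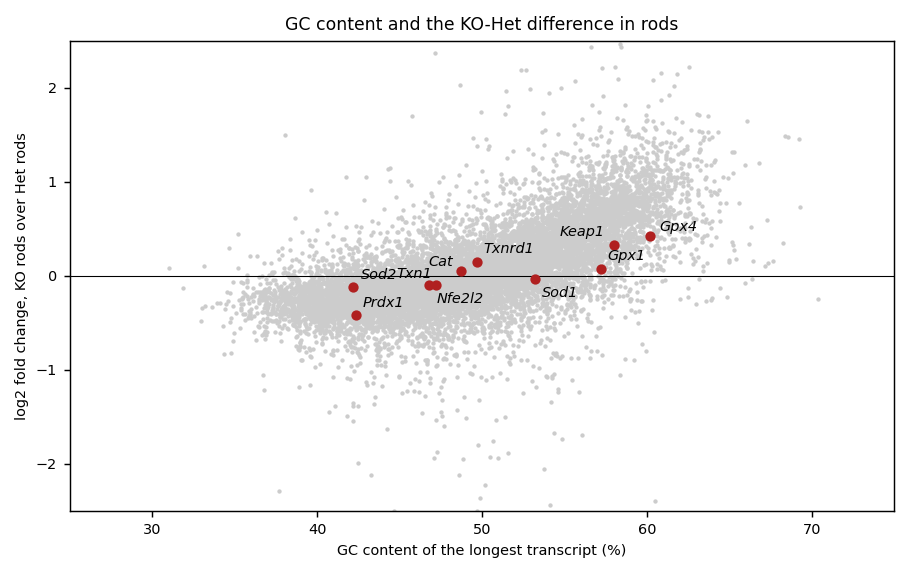
Log2 fold change of KO over Het rods against the GC content of the longest coding transcript for all genes tested (grey; 43 genes outside the axes) and the 10 antioxidant genes (red). The cloud rises with GC content, *Prdx1* and *Sod2* lie at its GC-poor end below 0, and *Gpx4* and *Keap1* at its GC-rich end above 0.

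In whole retina, where rods are mixed with all other cells, KO and Het overlapped for all 10 genes, and 1.54% of all genes lay wholly above and 1.99% wholly below. By limma 0 of the 10 were called, against 0% of 16863 genes in either direction, and without the trend and robust options 1 gene was called. At an unadjusted p below 0.05 there were 0 of the 10 and 140 genes in all (0.83%). Log2 fold changes of 9 genes lay between -0.03 and 0.18, and their adjusted p was 1. *Gpx1* was at -0.80 (SE 0.48, adjusted p = 1), with 32, 47 and 48 in Het retina against 16, 15 and 49 in KO retina. *Cat* had 392, 382 and 441 in Het retina, against 321, 316 and 606 in KO retina. KO retina 3, which holds 5% lens markers, was the highest KO library for both genes. That library also had 0.0927% retinal pigment epithelium markers, against 0.00355% in KO retina 1 and 0.00834% in KO retina 2. Its Müller glia share (0.609%) and its rise of values with GC content (0.90) were the highest in KO retina too. The part of each in these values was not tested. In bulk tissue a lower value can come from fewer cells or from less RNA per cell, which cannot be told apart.

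The KO effect in rods was set against the KO effect in retina in 1 model over the 12 libraries. By limma 0 of the 10 genes were called, against 0% of 17192 genes, and at an unadjusted p below 0.05 there were 0 of the 10 and 604 genes in all (3.51%). *Prdx1* had the lowest p of the 10, with a difference of log2 fold changes of -0.52 (SE 0.27, unadjusted p = 0.0791, adjusted p = 0.803). The other differences ran from -0.25 (*Txn1*) to 0.76 (*Gpx1*), with adjusted p from 0.803 to 0.999.

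A wider list of 66 antioxidant genes was examined beside these 10, of which 61 were tested between rods and retina. In Het mice 9 were higher and 31 lower in rods, against 21.4% and 36.8% of all genes, and in KO mice 11 were higher and 30 lower, against 25.7% and 36.5%. The median log2 fold change was -0.64 in Het and -0.54 in KO, against -0.11 and -0.02 over all genes. With library size alone 4 were higher and 35 lower in Het, and 2 and 36 in KO. Of 9 glutathione transferases, which join glutathione to electrophiles, 8 were lower in Het rods and 1 higher, with a median of -4.34.

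*Gstm1* had 321, 987 and 1223 in Het retina, against 4, 9 and 24 in Het rods, a log2 fold change of -5.71 (SE 0.63, adjusted p = 6.83e-05). *Gstp1*, with 937, 1511 and 823 in Het retina, against 1249, 1811 and 1470 in Het rods, was the 1 transferase that was higher, at 0.75 (SE 0.24, adjusted p = 0.0245). The secreted peroxidase *Gpx3* had 2094, 2481 and 4212 in Het retina, against 22, 43 and 71 in Het rods (-5.79, SE 0.41, adjusted p = 5.67e-06). The extracellular dismutase *Sod3* (-5.07) and the metallothionein *Mt1* (-4.64) were lower too. Markers of several other retinal cells were also lower, with 10 of 10 for Müller glia (median -4.92), 8 of 8 for amacrine cells (-4.88), 8 of 8 for ganglion cells (-5.13) and 7 of 7 for endothelium and pericytes (-4.92). Of 10 cone markers 9 were lower and 1 higher (median -1.05), and 0 of 7 lens markers were called (median -4.72). Their part in these falls was not tested.

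Among peroxiredoxins and their repair, *Prdx6* had 2612, 3029 and 3303 in Het retina, against 216, 232 and 250 in Het rods, and fell by 3.42 on the log2 scale (SE 0.14, adjusted p = 4.63e-07). *Srxn1*, sulfiredoxin, which repairs overoxidised peroxiredoxins, was at -1.22 (SE 0.13, adjusted p = 4.82e-05), and *Sesn1*, a sestrin, at 1.01 (SE 0.12, adjusted p = 8.58e-05). In the thioredoxin class *Nxnl1* encodes rod-derived cone viability factor. It had 5032, 4647 and 4058 in Het retina, against 12478, 12585 and 12600 in Het rods, a log2 fold change of 1.71 (SE 0.11, adjusted p = 2.94e-06), and *Nxnl2* was at 1.38. The thioredoxin inhibitor *Txnip* was at -3.36 (SE 0.40, adjusted p = 0.000101).

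For glutathione, *Gsr*, the reductase that recycles it, was higher in Het rods (0.63, SE 0.15, adjusted p = 0.0052). The modifier subunit of its rate-limiting ligase, *Gclm*, was lower (-0.90, SE 0.20, adjusted p = 0.00428), and the catalytic subunit *Gclc* was at 0.28 (adjusted p = 0.0988). Of 7 tested partners and relatives of NRF2, 2 were higher and 3 lower in Het rods, against 21.4% and 36.8% of all genes. *Cul3* (1.21) and *Rbx1* (0.66), which form the ligase that KEAP1 serves, were the higher ones. *Sqstm1*, which encodes the KEAP1-binding protein p62, was lower (-2.07, SE 0.18, adjusted p = 1.82e-05). *Mafg* (-1.67, adjusted p = 0.00026) and *Nfe2l1* (-0.51, adjusted p = 0.0391) were lower too.

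**Figure D5:**
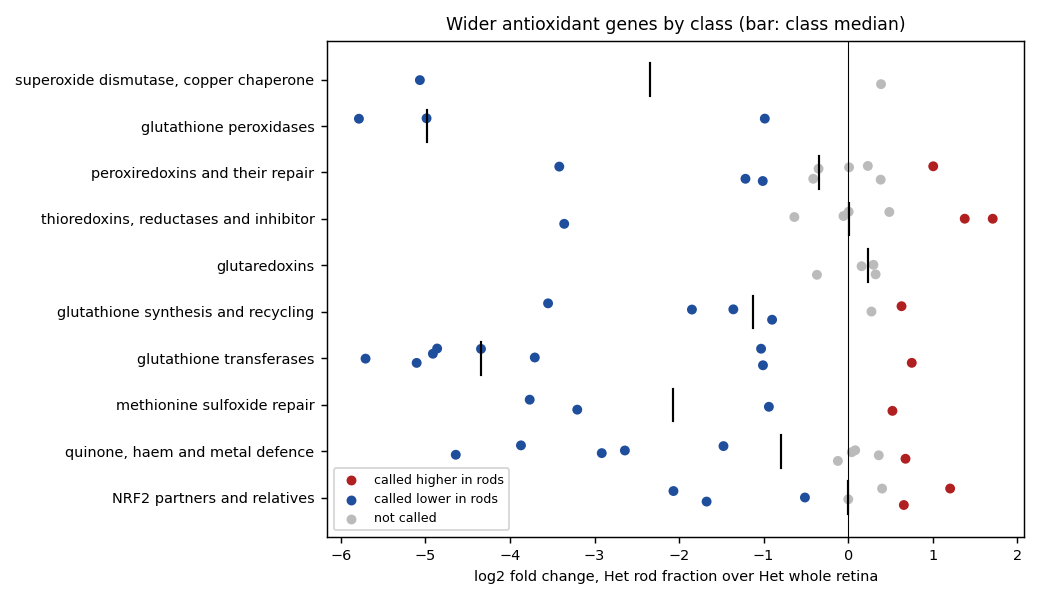
Log2 fold change of Het rods over Het retina for the 61 tested genes of the wider antioxidant list, 1 point a gene, by class, with the class median as a bar. Of the 9 glutathione transferases 8 are lower in rods, and the genes above 1 are *Nxnl1*, *Nxnl2*, *Cul3* and *Sesn1*.

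Between KO and Het rods 50 of the wider list were tested, of which 5 were higher and 2 lower, against 11.2% and 1.91% of all genes, so that the share higher was near the background. The median log2 fold change was 0.01 against -0.01 over all genes. With the GC trend removed 2 were higher and 1 lower. The higher genes as scaled were *Ccs*, *Prdx5*, *Txn2*, *Mgst3* and *Ftl1*. *Ftl1*, the ferritin light chain, rose, from 75, 119 and 89 in Het rods to 176, 273 and 206 in KO rods (1.28, SE 0.21, adjusted p = 0.00388), and with the GC trend removed it was at 0.65 (adjusted p = 0.0209). *Mgst3*, a microsomal glutathione transferase, went from 50, 68 and 73 to 98, 109 and 97 (0.75, SE 0.20, adjusted p = 0.0176), and with the GC trend removed it was at 0.68 (adjusted p = 0.0381). Against whole retina, *Ftl1* was depleted by limma in rods of both genotypes, at -2.64 in Het (adjusted p = 0.000383) and -1.78 in KO (adjusted p = 0.042). *Mgst3* was depleted in Het rods (-1.01, adjusted p = 0.0217) and was not called in KO rods (-0.54, adjusted p = 0.0805). The part of RNA from other cells in the rises of *Ftl1* and *Mgst3* was not tested. The calls of *Ccs*, the copper chaperone of SOD1, of *Prdx5* and of mitochondrial thioredoxin *Txn2* were lost with the GC trend removed. *Prdx2*, a peroxiredoxin like *Prdx1*, had 1506, 1974 and 1839 in Het rods, against 2113, 2177 and 2116 in KO rods. By limma it was at 0.36 (SE 0.10, adjusted p = 0.0246), under the fold limit, and at 0.32 (adjusted p = 0.0438) with the GC trend removed. Without the fold limit, 2 of 9 peroxiredoxin and repair genes were higher and 2 lower, against 15.7% and 8.59% of all genes.

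*Slc7a11* encodes the cystine importer that feeds glutathione synthesis. It had 105, 117 and 80 in Het rods, against 22, 31 and 53 in KO rods, with no overlap, and fell by 1.45 on the log2 scale (SE 0.28, adjusted p = 0.00579). It was still called lower with the GC trend removed (adjusted p = 0.0207). In Het retina *Slc7a11* had 275, 416 and 699, and Het rods were lower by limma (-1.85, SE 0.33, adjusted p = 0.00127). KO retina had 186, 389 and 557, which overlap those of Het retina. The part of RNA from other cells in the fall of *Slc7a11* was not tested. The other lower gene, *Glrx2*, a mitochondrial glutaredoxin, had 886, 1105 and 1047 in Het rods, against 350, 345 and 716 in KO rods (-1.10, SE 0.29, adjusted p = 0.0424), and with the GC trend removed it was at -0.87 (SE 0.33, adjusted p = 0.215). Whole retina had 934, 888 and 1113 in Het against 564, 683 and 782 in KO, which do not overlap as deposited. *Glrx2* was not called there. After scaling, 1.99% of all genes lay wholly below in KO retina.

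A list of 25 NRF2 target genes, of which 3 are members and 14 also stand in the wider list, gave 6 higher and 11 lower of 24 tested in Het rods against Het retina, where 21.4% of all genes were higher and 36.8% lower. The median was -0.52 against -0.11 over all genes, and in KO mice 7 were higher and 11 lower, with a median of -0.25 against -0.02. With library size alone 1 was higher in Het and 2 in KO, and 13 were lower in both. Of the enzymes in it that make NADPH or belong to the pentose phosphate pathway, *Me1* (0.90), *G6pdx* (0.93), *Taldo1* (0.92) and *Pgd* (0.59) were higher in Het rods. *Tkt*, transketolase, which was named after its values were seen, was lower (-2.54, SE 0.31, adjusted p = 0.000118). Between KO and Het rods 5 of 23 were higher and 1 lower, against 11.2% and 1.91% of all genes, with a median of 0.09 against -0.01. Removing the GC trend left 2 higher and 1 lower, with a median of -0.00 against -0.02. *Taldo1* (0.84, SE 0.14, adjusted p = 0.00438) and *Pgd* (0.65, SE 0.09, adjusted p = 0.00275) were higher, and *Slc7a11* was the lower one. Also higher were *Ftl1*, *Blvrb* (1.04, adjusted p = 0.0496) and *Tkt* (0.73, adjusted p = 0.00662). *G6pdx* (-0.02) and *Me1* (-0.18) were not called. With the GC trend removed *Taldo1* was at 0.59 and called. *Pgd* was then at 0.34 and *Tkt* at 0.44, both under the fold limit, and *Blvrb* was not called (adjusted p = 0.447). In retina 0 of 24 were called between KO and Het.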

How the data were processed

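RNA sequencing values of 12 libraries were read from the deposited table, in which, judged from the values, the authors' signal is a read count multiplied by 1 factor per library and rounded. Per the labels, the submitters' processing notes name CASAVA 1.8.2, HISAT2, DESeq2, edgeR and GRCm39 without roles, and how reads were counted is not given in the sources used here. The table held 0 columns of other samples.

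Groups and replicate numbers come from the genotype, tissue and titles in the labels. Genes were tested if 3 or more libraries of the comparison reached 10, scaled to the median total, and the values summed to 15 or more. Values were scaled with TMM factors over the libraries compared, and log2(value + 2) was fitted in limma 3.58.1 (R 4.3.3) with the trend and robust options, tested on simulated data. Fold changes are on that scale, which understates those of low genes. A count model was planned only if the values were raw counts, which they are not. P-values were adjusted by Benjamini-Hochberg over all genes tested. They are those of limma, and 3 against 3 libraries allow no exact permutation p below 0.1.

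The 10 genes, the wider, NRF2 target and marker lists were chosen with earlier results of these data known. All 10 members are named. From each list the text draws on the 4 genes with the highest mean and, in each comparison, the 2 largest rises and falls among called genes. A gene named in 1 comparison may be given in the others. Likeness is the root mean square difference of log2 values centred over 12 libraries. GC content came from the longest coding transcript of GENCODE (GRCm38), whose build differs from that of the authors. The trend was a lowess curve per library over GC (span 0.3), subtracted after taking off its median. Copies of members were searched with blastn 2.17.0, and Gpx4 was aligned with Biopython 1.88. Figures were drawn with matplotlib 3.10.9.

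Alternatives were library size or RLE scaling, pseudocounts of 0.5 and 8, no filter, limma without trend and robust options, no fold limit, all 4 groups in 1 fit, rod-depleted genes removed, each library left out, and the GC and replicate-block fits. In Het mice every same-numbered rod and retina pair deviated together (Pearson r across genes 0.47, 0.41 and 0.25). The numbers, taken from the titles, may therefore pair the libraries in Het mice. The main fits are unpaired, and the replicate-block fits include the number.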

Additional observations from a re-analysis of the deposited data

How the results depend on the processing

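Beyond the values given with each gene, library size alone moved the number of the 10 genes called higher in rods than in retina to 0 in both genotypes, and the number called lower to 2 in Het and 3 in KO, and it turned *Txnrd1* in KO mice to -0.0017. It also changed the sign, with no call in either version, of *Sod1*, *Cat*, *Prdx1*, *Txnrd1* and *Keap1* in Het and of *Cat* in KO. Between KO and Het rods the number called lower was 1 without a limit on the fold change and 1 with scaling factors of all 12 libraries (chosen after seeing the data), *Prdx1* in both. With the GC trend removed *Gpx4* was at -0.36, *Keap1* at -0.29 and *Sod2* at 0.11. The replicate block cannot change these estimates, since every replicate number is in both groups. When each library was left out in turn, the number called higher was 2 to 4 in Het rods against retina, 4 to 6 in KO rods against retina and 0 to 1 in KO against Het rods, and the number called lower was 0 in all 3. In retina and in the interaction the numbers stayed at 0 under every alternative run. The replicate block left the numbers at 3, 5 and 0 higher and changed no call of the 10 genes. It is a pairing supported by the check in Het mice alone, since same-numbered KO rods and retina had r of 0.33, -0.01 and 0.18, and KO and Het rods 0.18, 0.03 and 0.03. Of all calls between KO and Het rods, 85.4% were higher as scaled, 67.3% with library size alone and 45% with the GC trend removed, and the calls of all genes went from 1460 higher and 250 lower to 156 and 191 with the GC trend removed and to 769 and 153 without the trend and robust options. Between KO and Het rods 0 genes were called with all 4 groups in 1 fit, and the calls were 1202 higher and 584 lower with library size alone, 1206 and 608 with scaling factors of all 12 libraries, and 2044 and 1122 without a limit on the fold change. Leaving out 1 library gave 812 (without Het rod 1) to 1582 higher and 141 (without Het rod 1) to 394 (without Het rod 2) lower, with 950 higher without KO rod 2 and 146 lower without KO rod 1. Rods against retina gave 3453 higher in Het and 4144 in KO as scaled, and 1168 and 1144 with library size alone. Of 955 values of single genes under alternatives, 832 kept their sign and side of the threshold, 85 changed sign with no call and at least 1 of both values within its SE, 7 changed sign beyond that, 15 lost a call and 16 gained one. The cause of these changes was not tested. The 955 values include fits without the fold limit, without the trend and robust options and with the replicate block. These keep the fold changes of the fit they vary, so that no sign could change there. With scaled values the depth, and so the counting error of low genes such as *Gpx1*, is unknown.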
